A study of Mus musculus with 5 samples.

Results

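The genes described here are the Clk kinases Clk1, Clk2, Clk3 and Clk4, the L-type cyclins Ccnl1 and Ccnl2, the speckle protein gene Srrm2 and the SR protein genes Srsf2, Srsf3 and Srsf5, 10 of the 33894 genes in the files. They were chosen by name, with earlier results of these data in view, because Clk1, Ccnl1 and Srrm2 were higher in the Lrp5/6 double knockout libraries. The difference between the groups is therefore a description for these genes and carries no test. All 10 were found in every file and passed the filter on low counts.

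RNA of mouse haematopoietic stem cells was sequenced in bulk. From bone marrow of 8-week-old mice the sort kept cells that lacked lineage markers, CD34 and Flt3, carried Sca1 and were high for c-Kit, with 6K cells per library and Smart-seq2 library construction. The 3 libraries labelled dKO are given as Vav-cre mice with Lrp5 fl/fl and also Lrp6 fl/fl alleles, in which Cre, driven by the Vav promoter that is active across blood cells, is meant to delete both Wnt co-receptor genes. The 2 WT libraries are labelled WT with no Cre named, so the Cre transgene and the loss of the genes cannot be told apart. No label ties a library to an animal of its own, so the spread between libraries may be technical.

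Clk kinases phosphorylate the arginine- and serine-rich (RS) domains of SR proteins, which moves these proteins out of nuclear speckles, and SR proteins bind exons and help the spliceosome to define them. L-type cyclins also lie in speckles and pair with the kinase Cdk11, and Srrm2 is a large RS-rich scaffold of the speckle. Many of these genes regulate their own output by keeping introns in their transcripts or by including exons that send the transcript to decay. In humans SRSF2 is recurrently mutated in myeloid neoplasms.

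Library totals ranged from 16028512 to 26869348 counts in the libraries labelled dKO and from 26242672 to 28027458 in WT. The shallowest, dKO replicate 2, stood apart, with a highest correlation across genes of 0.851 with any other library. For dKO replicate 1 the highest correlation, 0.925, was with WT replicate 1, so the nearest library did not always share the label. Neither targeted gene had lower counts in all libraries labelled dKO. Lrp6 had 790, 260 and 767 counts there and 660 and 232 in WT, and Lrp5 37, 2 and 71 counts there and 7 and 32 in WT. Gene-level counts do not resolve a floxed exon, so all directions given here rest on the labels as deposited. The marker values that follow are in CPM without TMM scaling. The sort markers Kit and Ly6a summed to 725 to 971 CPM in the libraries labelled dKO and 390.1 to 618 CPM in WT. Kit was higher in every library labelled dKO, at 574 to 869 CPM, than in WT, at 309 and 442 CPM. Ly6a overlapped between the groups, at 102 to 154 CPM under the dKO label against 80.9 and 176 CPM in WT. A list of 10 stem cell markers summed to 1209 to 1332 CPM in the libraries labelled dKO and 524 to 860.4 CPM in WT. The proteins of Cd34 and Flt3 were excluded by the gate. Their transcripts summed to 1309 to 1452 CPM in the libraries labelled dKO and 781 to 1454 CPM in WT. Most of that sum was Cd34, which overlapped, at 999.7 to 1091 CPM under the dKO label against 677 and 1215 CPM in WT. Flt3 did not overlap: every library labelled dKO, at 310 to 364 CPM, exceeded both WT libraries, at 104 and 238 CPM. Granulocyte progenitor transcripts (5 markers led by Mpo) summed to 11092 to 16225 CPM in the libraries labelled dKO and 6434 to 37457 CPM in WT, where WT replicate 2 held the high value. B cell markers (5, of which Pax5 had no count in dKO replicate 2 or in either WT library) summed to 96.1 to 214 CPM in the libraries labelled dKO and 84.3 to 128 CPM in WT, and 5 erythroid markers to 91.5 to 116 CPM in the libraries labelled dKO and 84.3 to 89.1 CPM in WT. In bulk RNA, fewer cells of a type and less RNA per cell cannot be told apart.

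Levels between genes are compared in TPM, the authors' values scaled to library size and transcript length. In WT the order of the mean TPM was Srsf5, Srsf3, Srsf2, Clk1, Clk4, Ccnl1, Ccnl2, Clk3, Srrm2 and Clk2. Srsf5 lay at 461 to 616 TPM and Srsf3 at 233 to 235 TPM, clear of the next genes. Srsf2, Clk1 and Clk4 overlapped with each other, and Ccnl2 overlapped with both Ccnl1 and Clk3, so the order among these neighbours is not resolved by 2 libraries. Srrm2 (17.6 to 27.7 TPM) and Clk2 (6.59 to 9.20 TPM) were the lowest. In the libraries labelled dKO the order after Srsf5 was Srsf2, Clk1 and Srsf3 by mean TPM, and the other 7 genes held the places they had in WT. The range of Srsf2 was wide enough there to overlap with those of Srsf5, Clk1, Srsf3 and Clk4.

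**Figure D1:**
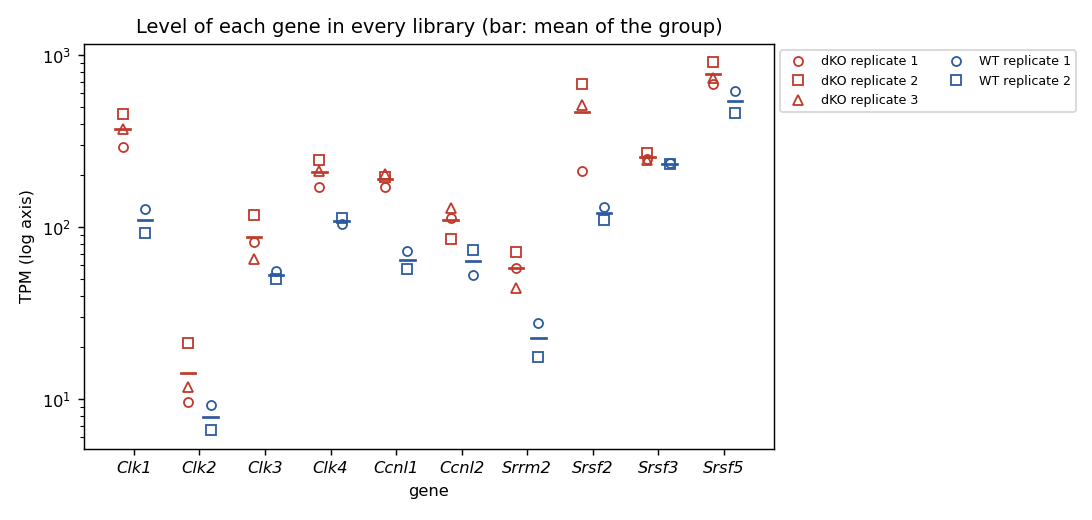
TPM (log axis) of the 10 genes in every library, with the libraries labelled dKO (red) left of the WT libraries (blue) and a bar at each group mean. For all 10 genes the lowest red point lies above the highest blue point, by little for Srsf3 and Clk2 and by far more for Clk1 and Ccnl1.

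The promoters of the 2 L-type cyclins and of Clk4 are shown because Ccnl1 and Clk4 hold a motif that few promoters hold, which Ccnl2 lacks. Of the 10 genes 9 had an entry in the RefSeq promoter table (build GRCm38.p6, whereas the deposited files name mm9). Clk1 had none, so its promoter was not searched. The 250 bases before each annotated start site were searched on both strands for 7 motifs. Srrm2 had an additional start site, which made 10 windows for the 9 genes. The cyclic AMP response element TGACGTCA stood in 2 of the 9 genes, Ccnl1 and Clk4, against 1.55% of 32851 promoters, and the CCAAT box in 4 (Clk2, Ccnl2, Srsf2 and Srsf3) against 33.8%. Capitals mark TGACGTCA in Ccnl1 and Clk4 and CCAAT in Ccnl2. The Ccnl1 window is chr3:65958250-65958499, minus strand, that of Ccnl2 chr4:155812239-155812488, plus strand and that of Clk4 chr11:51262864-51263113, plus strand.
Ccnl1: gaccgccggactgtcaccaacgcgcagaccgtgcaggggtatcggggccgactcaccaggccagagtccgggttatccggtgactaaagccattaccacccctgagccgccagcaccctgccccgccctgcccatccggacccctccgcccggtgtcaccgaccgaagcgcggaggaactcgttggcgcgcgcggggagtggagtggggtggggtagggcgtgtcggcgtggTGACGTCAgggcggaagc
Ccnl2: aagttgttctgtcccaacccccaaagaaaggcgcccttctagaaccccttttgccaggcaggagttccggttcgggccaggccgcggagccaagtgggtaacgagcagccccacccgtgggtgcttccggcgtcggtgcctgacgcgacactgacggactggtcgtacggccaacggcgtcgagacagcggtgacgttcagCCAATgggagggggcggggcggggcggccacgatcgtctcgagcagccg
Clk4: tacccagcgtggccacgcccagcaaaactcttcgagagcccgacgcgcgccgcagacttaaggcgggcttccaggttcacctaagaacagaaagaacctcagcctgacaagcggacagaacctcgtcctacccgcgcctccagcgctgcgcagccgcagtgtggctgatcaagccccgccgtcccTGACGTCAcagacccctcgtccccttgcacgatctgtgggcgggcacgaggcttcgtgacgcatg
The element began 18 bases before the start site in Ccnl1 and 65 bases before it in Clk4, and in Ccnl1 it abutted a GC box without overlap. GGGCGG, the GC box, was found in 7 of the 9 genes against 32.7% of promoters, CCGGAAG, an ETS site, in 3 against 6.91%, and the E-box CACGTG in 1 against 6.02%. The AP-1 site TGACTCA (4.46% of promoters) was in no window of the 9 genes. The same held for CTTTGAT, the site of the TCF and LEF factors that act in Wnt signalling (3.21%). The windows of these genes held 56.8% to 75.2% G and C, against a median of 52.4% over all promoters. A match is a description of these letters and not of binding.

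Clk1, the Clk family member with the largest difference, measured 291, 457 and 373 TPM in the libraries labelled dKO and 127 and 92.3 TPM in WT. All 3 libraries labelled dKO exceeded both WT libraries, with dKO replicate 2 the highest. In counts scaled to library size (CPM, with edgeR's TMM factors) it averaged 492 ± 123 in the libraries labelled dKO and 156 ± 20.1 in WT (SD, n = 3 and n = 2), a fitted log2 fold change of 1.66 (SE 0.26), and the value stayed within 1.51 to 1.85 when each library was left out in turn. A value higher than that of Clk1 was found for 6.93% of the 13696 tested genes. Clk4, the closest relative of Clk1, measured 171, 244 and 212 TPM in the libraries labelled dKO and 104 and 113 TPM in WT, a log2 fold change in counts of 0.90 (SE 0.29). The groups did not overlap for Clk4 either, but the lowest library labelled dKO, replicate 1, lay close to the upper WT library in CPM, at 147 and 126 CPM.

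Clk3 measured 82.4, 117 and 65.1 TPM in the libraries labelled dKO and 55.7 and 49.9 TPM in WT, with a log2 fold change in counts of 0.57 (SE 0.29), which was 0.37 without dKO replicate 2. Clk2, the least abundant of the 10 genes, had 299, 364 and 409 counts in the libraries labelled dKO and 321 and 229 in WT. Its CPM overlapped between the groups, since dKO replicate 1 (11.02 CPM) lay below WT replicate 1 (12.2 CPM), and its log2 fold change of 0.59 (SE 0.53) was about the size of its own error. It was 0.30 without dKO replicate 2 and 0.39 without WT replicate 2. Summed over the 4 Clk genes, TPM came to 554, 839 and 662 in the libraries labelled dKO and 296 and 262 in WT. Clk1 made up 52.5, 54.4 and 56.4 percent of that sum in the libraries labelled dKO and 42.9 and 35.2 percent in WT. The ratio of Clk1 to Clk4 in TPM was 1.70, 1.87 and 1.76 in the libraries labelled dKO and 1.22 and 0.814 in WT. Clk1 was chosen for being higher in the libraries labelled dKO, so its larger share and ratio there follow in part from that choice.

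Ccnl1, one of the partners of Cdk11, measured 171, 195 and 204 TPM in the libraries labelled dKO and 72.6 and 56.9 TPM in WT. The lowest library labelled dKO was well above the highest WT library, at 171 and 72.6 TPM. In counts it averaged 292 ± 43.4 CPM in libraries labelled dKO and 121 ± 10.8 CPM in WT, a log2 fold change of 1.27 (SE 0.21), or 1.17 to 1.39 with each library left out. Its paralogue Ccnl2 measured 114, 85.4 and 129.5 TPM in the libraries labelled dKO and 53.0 and 73.4 TPM in WT, and 196 ± 19.2 CPM against 118 ± 14.8 CPM in WT, a log2 fold change of 0.74 (SE 0.20). The ratio of Ccnl1 to Ccnl2 in counts was 1.15, 1.57 and 1.81 in the libraries labelled dKO and 1.01 and 1.06 in WT. Ccnl1 was likewise chosen for being higher, so nothing further is read from this ratio.

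Srrm2, the speckle scaffold, measured 58.3, 71.3 and 44.3 TPM in the libraries labelled dKO and 27.7 and 17.6 TPM in WT. Its groups did not overlap, but its WT libraries were the furthest apart of the 10 genes, by 0.62 in log2 CPM, with WT replicate 2 the lower. In counts it averaged 337 ± 33.8 CPM in the libraries labelled dKO and 138 ± 41.5 CPM in WT, a log2 fold change of 1.28 (SE 0.24), which moved to 1.62 when WT replicate 1 was left out and to 0.999 when WT replicate 2 was. WT replicate 2 was also the library with the most granulocyte progenitor transcripts, whose part in the Srrm2 value was not tested.

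The 3 SR protein genes had log2 fold changes from 0.03 to 0.80. Srsf3, which binds pyrimidine-rich sequence and also serves in mRNA export, had counts of 393, 454 and 447 CPM in the libraries labelled dKO, against 396 and 446 CPM in WT, a log2 fold change of 0.03 (SE 0.17). Srsf5 averaged 1013 ± 145 CPM in the libraries labelled dKO and 732 ± 38.4 CPM in WT, a log2 fold change of 0.47 (SE 0.19) with no overlap. Srsf2, which binds exonic splicing enhancers, had counts of 319, 1068 and 1035 CPM in the libraries labelled dKO, against 439 and 489.9 CPM in WT. The libraries labelled dKO lay on both sides of WT, with replicate 1 below both WT libraries and replicates 2 and 3 far above, and the log2 fold change was 0.80 (SE 0.46). Without dKO replicate 1 that value was 1.18, and without dKO replicate 2 it was 0.54.

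In TPM the same gene gave another picture. Srsf2 measured 213, 683 and 514 TPM in the libraries labelled dKO and 131 and 109 TPM in WT, so that dKO replicate 1 lay above both WT libraries. The ratio of the 2 group means was 3.91 in TPM and 1.74 in CPM. The ratio of count to TPM, scaled so that the median gene of a library is 1, reflects the length by which the authors divided, and any difference in how reads were assigned for the 2 files. For Srsf2 it was 1.08, 1.15 and 1.30 in the libraries labelled dKO and 2.18 and 2.52 in WT, a difference of -0.995 in log2. A lower value of that difference was found in 0.419% of the 8584 genes with at least 100 counts in every library, where the median was 0.02. Of those genes 7.37% had every library labelled dKO below every WT library in this ratio.

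Set against 555 genes with a single transcript in GENCODE M21, the Srsf2 ratio corresponds to 2894, 3024 and 3474 bases in the libraries labelled dKO and 5853 and 6755 bases in WT. The longest annotated Srsf2 transcript has 1899 bases, so the value exceeded any annotated length in every library and by most in WT. Srrm2 also lay above its longest transcript in every library, at 9326 to 12471 bases over the 5 libraries against 8864. Ccnl2 did so in dKO replicate 2, at 4609 bases against 4220. An excess as such is thus not particular to Srsf2, but relative to the annotated length it was smaller for Srrm2 and Ccnl2. Exons of 2 genes on the opposite strand share bases with those of Srsf2, Mettl23 over 15.6% and Mfsd11 over 9.74% of its exon bases, and the library type does not mark strand in its standard form. Mfsd11 had 491, 739 and 249 counts in the libraries labelled dKO and 383 and 562 in WT. Mettl23 had 1077, 726 and 968 counts in the libraries labelled dKO and 1140 and 956 in WT. Srsf2 had 8657, 17669 and 27931 counts in the libraries labelled dKO and 11560 and 12228 in WT. These counts do not show how reads in the shared exons were assigned. The part of shared exons or of transcript choice in the Srsf2 values was not tested. Among the other 9 genes Ccnl2 had the widest ratio, at 1.34, 1.76 and 0.869 in the libraries labelled dKO and 1.57 and 0.822 in WT, which split the libraries within both groups, and the remaining 8 varied by at most 1.34-fold over the 5 libraries, against a median of 1.12-fold over all genes compared.

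**Figure D2:**
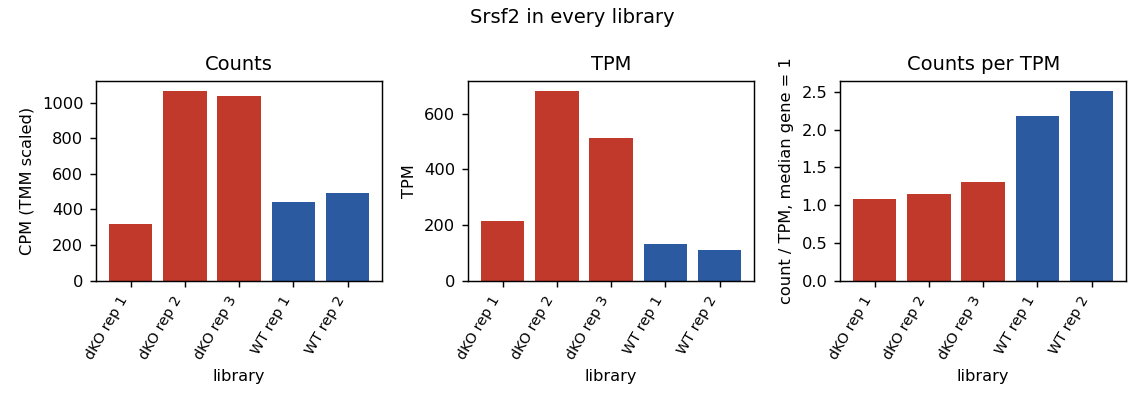
Srsf2 in every library, the libraries labelled dKO (red) left of WT (blue), as CPM with TMM scaling, as TPM, and as the ratio of count to TPM with the median gene of each library set to 1. In counts dKO replicate 1 is the lowest bar, in TPM it exceeds both WT bars, and the ratio is 1.08 to 1.30 in red against 2.18 and 2.52 in blue.

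Over all 10 genes the fitted log2 fold change in counts was above 0 for 10, with a median of 0.77, against 52.2% of the 13696 tested genes and a median of 0.04 for all of them. For 7 of 10 the lowest CPM among libraries labelled dKO exceeded the highest in WT (background 13.7%), the exceptions being Clk2, Srsf2 and Srsf3, and in TPM this held for 10 of 10 (background 18.6%). Without Clk1, Ccnl1 and Srrm2, on which the choice was made, the median of the other 7 was 0.59, with 4 of 7 free of overlap in CPM. With edgeR (quasi-likelihood test, Benjamini-Hochberg adjusted over all tested genes) 0 of the 10 were called, as were 0% of tested genes in either direction. At an unadjusted p under 0.05, 6 of the 10 passed as higher (background 4.94%). DESeq2 called Clk1, Ccnl1 and Srrm2 as higher (background 1.15%) and limma-voom called 0 of the 10 (background 0%). Nothing is read from these counts, since the genes were chosen on this contrast.

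**Figure D3:**
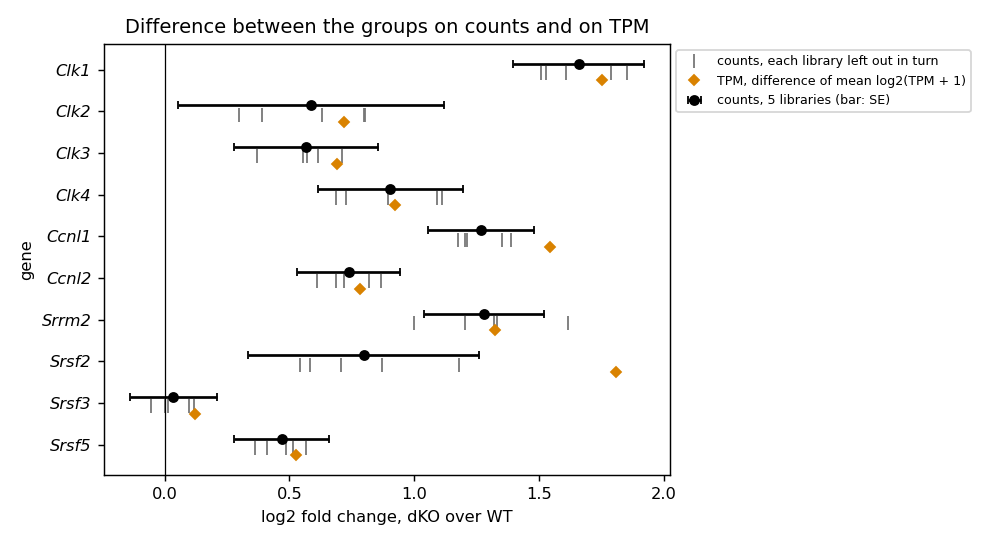
Log2 fold change of the libraries labelled dKO over WT for each gene, from counts (black, bar one SE), from counts with each library left out in turn (grey ticks) and as the difference of mean log2(TPM + 1) (orange). Count and TPM values lie close together except for Srsf2 (0.80 in counts, 1.81 in TPM) and, less so, Ccnl1 (1.27 and 1.55), and Srsf3 lies at 0.03 in counts.

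The 10 genes were compared with each other as profiles of log2 CPM over the 5 libraries, each centred on its own mean. Ccnl1 and Srrm2 were among the closest pairs, differing by a root mean square of 0.180, and Clk1 and Ccnl1 differed by 0.215. Clk1, Ccnl1 and Srrm2 were chosen for being higher in the libraries labelled dKO, so their closeness follows in part from that choice. Clk3 and Srsf5 were the closest pair, at 0.165, and Clk1 and Srsf3 the most distant, at 0.814. Within groups Srsf2 had the widest spread, a pooled SD of 0.813 in log2 CPM, and Srsf3 the narrowest, 0.116, a spread that 96.8% of tested genes exceeded. Among 8789 other genes with a mean of at least 10 CPM, the profiles nearest to that of Clk1 were those of the thrombin receptor gene F2r (0.0779), the histone deacetylase gene Hdac11 (0.103) and Gm12940 (0.122). Nearest to Ccnl1 were Plcb4 (0.0615), an entry the files name U6 (0.0644) and Mllt3 (0.0863), and nearest to Srrm2 were Mlxip (0.114), Mxd1 (0.120) and Socs5 (0.126). These are likenesses over 5 libraries and no more than that.

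The annotation of the 10 genes shared a feature that played no part in their choice. In GENCODE M21 all 10 had at least one transcript classed as keeping an intron and at least one classed as a target of nonsense-mediated decay, against 23.3% of 12184 tested genes with a coding transcript and 43.9% of 107 other splicing genes. The 10 genes had 5 to 14 annotated transcripts each, and the backgrounds were not matched for that number. The part of the number of annotated transcripts in this difference was not tested. Ccnl1 had 8 intron-keeping transcripts among 14, Clk1 7 among 13, Clk4 7 among 14 and Srsf2 1 among 6. The deposited values are per gene and cannot show which of these transcripts were present. Transcripts of other genes at 95% identity or more over 300 bases were found for Srrm2 (1), Srsf3 (4) and Srsf5 (1), and the copies listed in the files held at most 6 counts in any library for Srsf3 or Srsf5 and 0 for Srrm2. Exons of Edc3 on the opposite strand covered 15.2% of the exon bases of Clk3, so Clk3 counts are uncertain, and exons of Gm37305, not analysed here, covered 7.37% of the exon bases of Ccnl1. Edc3 had 2471, 2222 and 1961 counts in the libraries labelled dKO and 2007 and 1558 in WT.

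Other splicing genes, from 6 lists written with earlier results known, were set beside these. Of 110 listed genes 107 passed the filter, and of these 49 had a higher and 58 a lower value in the libraries labelled dKO, with a median log2 fold change of -0.06. By edgeR's adjusted test 0 were called in either direction. At an unadjusted p under 0.05, 7 were higher and 10 lower (backgrounds 4.94% and 5.19%). DESeq2 called 3 as higher and 0 as lower (backgrounds 1.15% and 0.678%), and limma-voom called 0 (background 0%).

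Of 9 other SR protein genes tested, 4 had a higher and 5 a lower value, with a median of -0.001 (0.30 in TPM, where that of all genes was 0.14) and 0 at an unadjusted p under 0.05. Srsf10, a splicing repressor when dephosphorylated, had a log2 fold change of -0.35, Srsf6 -0.28 and Srsf4 0.60 (adjusted p = 0.571, 0.678 and 0.686 by edgeR). Among SR protein kinases and their Dyrk relatives 8 of 11 had a higher value, with a median of 0.35 and 2 higher at an unadjusted p under 0.05. That median was 0.64 in TPM, 0.78 without WT replicate 1 and 0.67 without dKO replicate 1. Dyrk3, a kinase that dissolves speckles and stress granules, measured 60.3 ± 11.6 CPM in the libraries labelled dKO and 24.1 ± 6.32 CPM in WT, a log2 fold change of 1.32 (adjusted p = 0.430 by edgeR). Prpf4b, a kinase of the spliceosome, had 0.92 (adjusted p = 0.441 by edgeR). The cytoplasmic SR protein kinase Srpk1 went the other way, with a log2 fold change of -0.39 (adjusted p = 0.528 by edgeR).

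Of 10 transcription cyclins and kinases 7 had a higher value, with a median of 0.47 (0.35 in TPM) and 2 higher at an unadjusted p under 0.05. The cyclin L partner gene Cdk11b measured 102 ± 28.2 CPM in the libraries labelled dKO and 63.4 ± 5.76 CPM in WT, a log2 fold change of 0.69. Ccnt1, the cyclin of the elongation kinase Cdk9, had 1.16 and Cdk12, an elongation kinase, 0.91 (adjusted p = 0.491, 0.434 and 0.511 for Cdk11b, Ccnt1 and Cdk12 by edgeR). Of 21 genes of SR-related and speckle proteins 14 had a higher value, with 3 higher and 1 lower at an unadjusted p under 0.05. Their median was 0.32 (0.48 in TPM, 0.13 without dKO replicate 2, 0.18 without WT replicate 1). Rbm39, a splicing factor related to U2af2, measured 1019 ± 16.7 CPM in the libraries labelled dKO and 696 ± 29.8 CPM in WT, a log2 fold change of 0.55. The files' Sfrs18, now named Pnisr, had 0.66 and Srek1 0.79 (adjusted p = 0.434, 0.434 and 0.437 for Rbm39, Sfrs18 and Srek1 by edgeR). The calls of DESeq2 in these lists were Dyrk3, Sfrs18 and Rbm39.

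Of 34 core spliceosome genes tested, 9 had a higher and 25 a lower value, with a median of -0.32 (-0.51 without WT replicate 1, -0.17 without WT replicate 2), and 8 were lower at an unadjusted p under 0.05. Snrnp40, of the U5 particle, measured 199 ± 25.3 CPM in the libraries labelled dKO and 329.8 ± 42.3 CPM in WT, a log2 fold change of -0.73, the Sm protein gene Snrpd1 had -0.84, and U2af1, which reads the end of the intron, -0.68 (adjusted p = 0.434, 0.436 and 0.436 by edgeR). Of 22 genes of hnRNP proteins, which bind nascent RNA and often oppose SR proteins, 7 had a higher and 15 a lower value, with a median of -0.30 and 1 lower at an unadjusted p under 0.05. Hnrnpa1 measured 279 ± 43.3 CPM in the libraries labelled dKO and 492 ± 112 CPM in WT, a log2 fold change of -0.82 (adjusted p = 0.430 by edgeR), and Hnrnpa3 and Hnrnph2 had -0.49 and -0.46 (adjusted p = 0.516 and 0.513 by edgeR). In TPM the hnRNP median was 0.05 where that of all genes was 0.14, so the sign of the hnRNP value depends on the unit, and the core spliceosome median was -0.12. No difference between lists was tested.

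**Figure D4:**
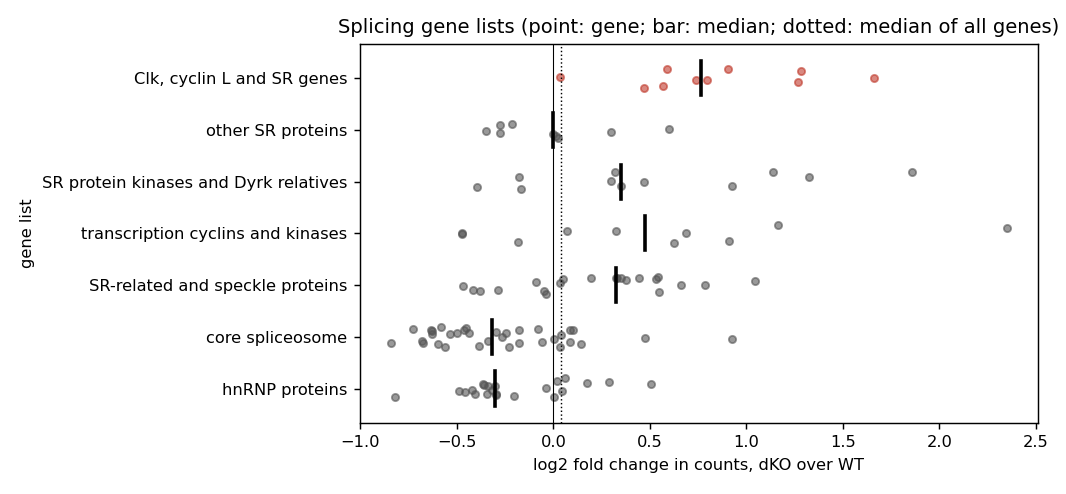
Log2 fold change in counts, the libraries labelled dKO over WT, for the 10 Clk, cyclin L and SR genes (red) and for the tested genes of 6 other splicing lists (grey), with a bar at each median and a dotted line at the median of all genes, 0.04. The median is 0.77 for the red genes, -0.001 for other SR proteins and -0.32 for the core spliceosome.

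Immediate early genes are induced fast when a cell is stimulated, and 12 of them summed to 7203 to 9373 CPM in the libraries labelled dKO and 3009 to 4257 CPM in WT, and 12 of 12 had a higher fitted value in the libraries labelled dKO, 11 of them without overlap, with a median log2 fold change of 1.39. The stem cell markers, given above, had a higher value in 10 of 10, of which 4 were free of overlap, with a median of 0.70. Over all tested genes 52.2% had a higher value and 13.7% were higher without overlap. Neither list was part of the choice of the splicing genes, and their part in the splicing values was not tested. The profile of one of those markers, Mllt3, was among the nearest to that of Ccnl1.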

How the data were processed

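RNA was measured in 3 libraries labelled dKO and 2 WT libraries. The deposited files give, per library, raw counts per gene and, in a second file, TPM computed by the authors. Tools listed in the submitters' processing notes are TopHat2 2.1.1, HTSeq, RSEM 1.2.31, DESeq2, Trimmomatic and FastQC 0.11.5, with the build mm9. Which tool made which values was not stated. Of 33924 entries 30 name no gene. These held 0.216% to 0.269% of the counts and were left out.

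Counts were tested with edgeR 4.0.16 (R 4.3.3; TMM scaling, filterByExpr, robust quasi-likelihood fit, 13696 genes, Benjamini-Hochberg adjusted p under 0.05) on all 5 libraries without a covariate. The biological coefficient of variation was 67.9% (common dispersion 0.461). SE values of log2 fold changes come from the F statistic. DESeq2 1.42.0, limma 3.58.1 (voom with sample weights, and log2 TPM with a pseudocount of 1 or 0.1), RLE and upper quartile scaling, 2 other filters, a replicate block, and leaving out single libraries were alternatives. Where 1 WT library remained, its spread was taken from the dKO libraries. A count of 0 allows up to 0.107 to 0.187 CPM (3 counts per library, counting error only). Libraries of a group differed far beyond sampling noise (chi-square per degree of freedom 99.6 to 162), and all 5 were kept as separate samples.

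The genes, lists and tests were chosen with earlier results of these data known. All 161 list entries matched the files, 157 by symbol and 4 by Ensembl identifier. Besides the 10 genes, those named by rule are the 3 with the smallest unadjusted p in each of the 6 splicing lists and the 3 nearest profiles to Clk1, Ccnl1 and Srrm2. The targeted genes, single markers of the marker lists and genes whose exons overlap those of the 10 are named as well. GENCODE M21 (GRCm38) served for transcript classes, lengths, exon overlap and copies, and RefSeq for promoters. None of its coordinates were joined to the files, whose build is mm9.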

Additional observations from a re-analysis of the deposited data

How the results depend on the processing

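Over 14 alternatives, 138 of 140 values of the log2 fold change of the 10 genes were above 0. The others were Srsf3, at -0.003 with limma-voom and -0.06 without WT replicate 1. The median of the 10 genes ranged from 0.58 to 0.96, and the number free of overlap between the groups from 7 to 10 in the alternatives where it was counted, which do not include DESeq2, limma-voom or the block. DESeq2 called 245 genes, 3 of them among the 10. Without a filter on low counts, which tested 17952 genes, edgeR called 8 genes, and Clk1 was the 1 among the 10. With each library left out in turn edgeR called 0 to 5 genes, and 0 of the 10. The cause of these differences was not tested. With the replicate number as a block edgeR called 1 gene, none of the 10, and the Srsf2 value was 0.33. For the numbers 1 and 2, the deviations of same-numbered libraries from their group means correlated at 0.03 and 0.05 over 13696 genes. No strong shared effect was thus seen. With 2 WT libraries the WT deviations mirror each other, so these are not separate checks, and whether same-numbered libraries were paired is not settled by them. Srsf2 ranged from 0.29 (limma-voom) to 1.81 (TPM), and Clk2 from 0.30 (without dKO replicate 2) to 0.80 (without dKO replicate 1). The median of all genes was 0.14 in TPM and 0.04 in counts. With 3 and 2 libraries an exact permutation test of one gene cannot go below 0.1 one-sided.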
